A study of Labroides dimidiatus with 23 samples.

Results

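The chromosome 6 regions of acetylated chromatin in the forebrain of the cleaner wrasse (Labroides dimidiatus) numbered 2295, which is 4.33% of the 52979 regions found in the whole genome. A region was defined as bases lying under the broad H3K27ac peaks of at least 3 of 22 libraries, with gaps of 200 bp or less closed and a length of 200 bp or more. The members were thus chosen by the position of peaks pooled over all groups and by chromosome name, and their positions and number are a description. At the limits of that rule, 2 members were exactly 200 bp long, 129 pieces of chromosome 6 were too short, the longest of them 198 bp, and the closest members lay 205 bp apart.

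H3K27ac is the acetylated form of a lysine in the tail of histone H3. Acetyltransferases of the CBP family lay the mark down at active promoters and enhancers, deacetylases remove it, and long acetylated stretches often surround genes that a tissue uses strongly. In the brain of mammals, neuronal activity is known to change the mark at some enhancers, which is why it is used to look for a chromatin response to experience.

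The mark was mapped by CUT&RUN, in which a nuclease tethered to the antibody releases the marked chromatin for sequencing, in adult forebrain. Cleaner wrasse feed on the parasites of client fish. Fish of the familiar group had met a client before a social preference test, and for control fish both clients were new. Every title also carries 30 or 120, for which no unit is given and which is read here as a time, an assumption. The groups were familiar 120 (6 libraries), control 120 (6), familiar 30 (6) and control 30 (5). Replicate numbers name libraries and pair none. The sources used here do not say whether a library holds 1 fish or a pool, so p-values speak only of the spread from library to library, part of which may be technical. Positions are those of the deposited lists. The sources used here name no genome build, and genes and sequences at these positions were not analysed here. For the same reason the tissue could not be checked against its marker genes.

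The 22 libraries held 34714 to 48264 peaks each. Familiar 30 replicate 2 listed 7077, of which 316 lay on chromosome 6, and was left out of the regions and of every comparison, so that familiar 30 has 5 libraries below. Read depth is unknown, since the lists hold no read counts. The measure used throughout is cover, the percentage of a region, a window or the chromosome that lies under a library's peaks, and a region was called present in a library at a cover of 50% or more. Cover records where peaks were called, so a change in the height of the signal inside a stretch that stays covered would not be seen, and fewer cells with the mark cannot be told apart from less mark per cell.

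Along chromosome 6 the regions took up 5.62 Mb, or 16.3% of the 34.4 Mb up to the last peak. The first began at base 288505 and the last ended at base 34420315. There were 66.6 regions per Mb, the third lowest density among the 24 chromosomes, where the other 23 had 61.7 to 90.2 with a median of 73.7. The share of its length in regions, 16.3%, stood beside a median of 18.8% and a range of 14.1 to 27.9% in the others. The median length was 1251 bp, within the range of 1145 to 1509 bp of the other chromosomes. No test was made of a difference between chromosomes.

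Acetylation was densest left of the centre of the chromosome, where the densest windows lay among others of uneven cover. When the chromosome was divided into 35 windows of 1 Mb, the last of them 435 kb long, the mean cover over the 22 libraries was highest in window 13 (12000001 to 13000000), at 29.2%, followed by window 17 at 26.8% and window 8 at 25.2%. Window 14, at 24.9%, was the only other one above 20%. These 4 windows held 28.996% of all bases under peaks on chromosome 6, and the 10 highest held 54.3%. Among the windows between them, windows 10, 12, 15 and 16 had 14.7 to 16.2%, window 9 had 8.28% and window 11 had 3.46%. The lowest were window 35 at the right end, with 1.13%, window 4 with 2.44% and window 1 with 2.77%, and 6 windows in all stayed under 5%.

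The 2 ends of this ranking were shared by all libraries. Window 13 was the highest and window 35 the lowest in 22 of 22 libraries. The order of the windows between them was not the same in every library. In familiar 120 replicate 3, window 3 had 14.4% and window 8 had 13.6%, where the means over the 22 libraries were 11.5% and 25.2%. In window 13, mean cover was 27.4% ± 4.06 for familiar 120, 29.5% ± 2.18 for control 120, 30.3% ± 0.908 for familiar 30 and 29.9% ± 1.81 for control 30 (SD over 6, 6, 5 and 5 libraries). In window 8 the means were 23.4% ± 5.30 in familiar 120, 25.4% ± 1.94 in control 120, 26.4% ± 1.33 in familiar 30 and 26.1% ± 3.67 in control 30. The familiar 120 libraries were the most spread in both windows.

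**Figure D1:**
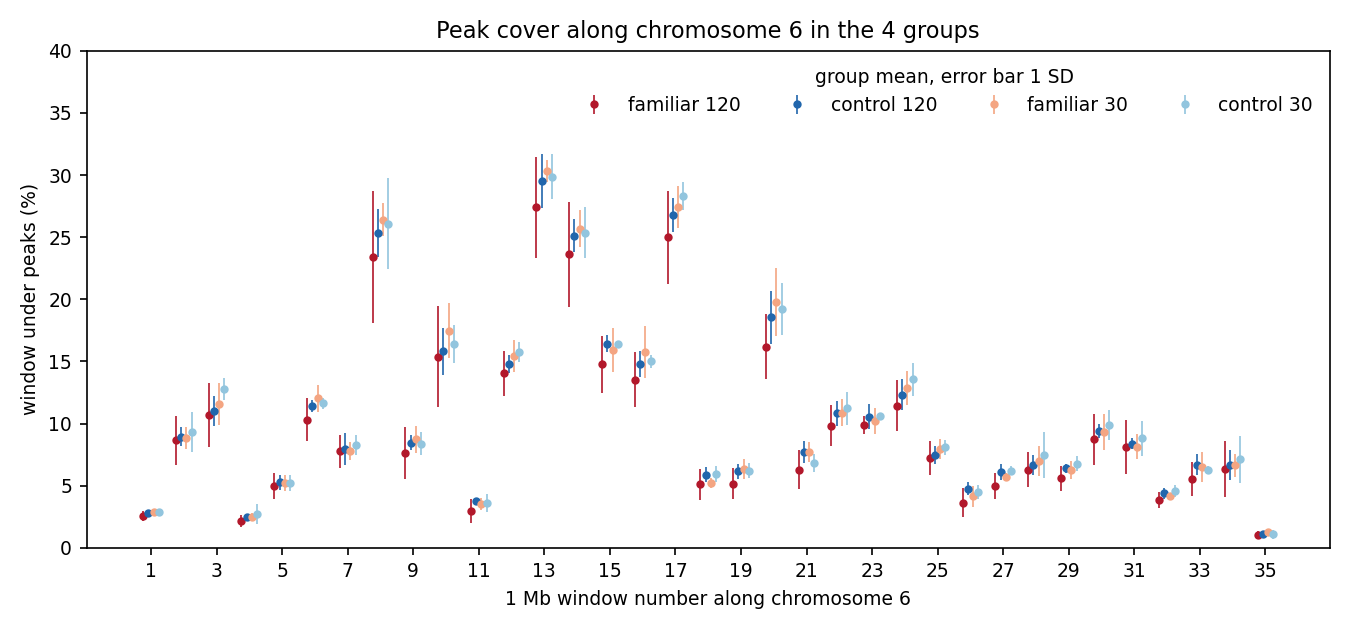
Percentage of each 1 Mb window of chromosome 6 under peaks (y axis) against the window's number along the chromosome (x axis). Points are group means and bars 1 SD over 6 familiar 120, 6 control 120, 5 familiar 30 and 5 control 30 libraries. Windows 8, 13, 14 and 17 stand above 20% in each group's mean.

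Large parts of the chromosome carried no region. There were 34 gaps of more than 100 kb between neighbouring regions, against a median gap of 4545.5 bp. The longest stretch without a region ran from base 3288463 to base 3671303, or 383 kb, inside window 4. The next were 330 kb, from 28528238 to 28857795, and 297 kb, from 30029415 to 30326314. The window with the most regions was not the one with the most cover, since window 20 held 109 regions at a mean cover of 18.3% and window 13 held 71.

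Long regions were few and held much of the acetylated length. The 88 regions of 10 kb or longer made up 30.03% of the length, the 372 of 3 to 10 kb 32.5%, the 931 of 1 to 3 kb 27.8% and the 904 shorter ones 9.58%. Long regions also recurred more often between libraries: 41 of the 88 (46.6%) were present in all 22 libraries, against 69 (18.5%) of those of 3 to 10 kb, 78 (8.38%) of those of 1 to 3 kb and 13 (1.44%) of the shorter ones. In the rest of the genome these shares were similar, at 45.4%, 17.9%, 9.32% and 1.45%. There, regions of 10 kb or longer made up 30.2% of the length. Length and recurrence come from the same peaks, so their link is in part a consequence of the rule, here and elsewhere. In all, 201 regions (8.76%) were present in every library, and 710 (30.9%) had at least 1 covered base in every library. The other chromosomes had 7.01 to 12.3% of their regions present in every library.

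**Figure D2:**
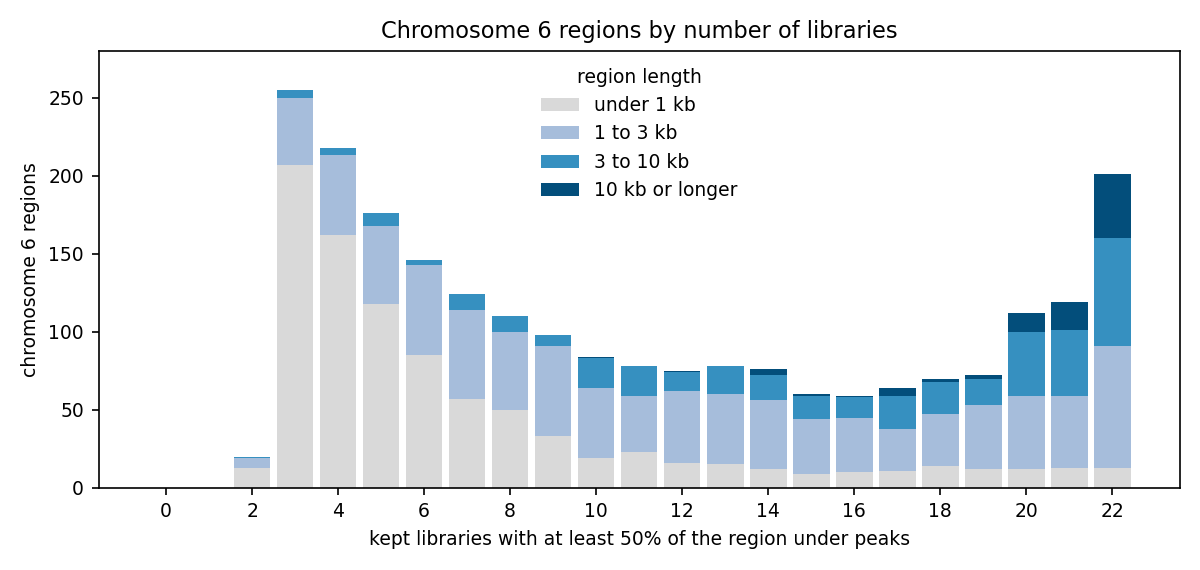
Number of chromosome 6 regions (y axis) by the number of the 22 libraries in which at least 50% of the region lay under peaks (x axis), with bars stacked by region length. Short regions make up most of the 255 regions present in 3 libraries, and regions of 10 kb or longer lie mainly at the right, with 41 of 88 present in all 22.

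The 5 longest regions, called domains below, were present in nearly every library. Their lengths come from peaks pooled over libraries with gaps closed, and a library may cover them with several peaks. The longest single chromosome 6 peak of a kept library ran from 24.1 kb in familiar 30 replicate 6 to 77.9 kb in familiar 120 replicate 1. The longest, chr6:11353346-11438729, measured 85.4 kb, had a mean cover of 89.5% and was present in 21 libraries. The second, chr6:12102421-12162465, measured 60.0 kb with a mean cover of 83.5% and lay in window 13, the most covered one. The third, chr6:7897942-7950105, measured 52.2 kb, was present in 20 libraries and lay in window 8. The other two, chr6:13638951-13690715 of 51.8 kb and chr6:16761263-16808229 of 47.0 kb, were present in all 22, as were the next longest of that kind, chr6:16936313-16981416 of 45.1 kb and chr6:28397314-28437460 of 40.1 kb.

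Within the longest domain, cover in familiar 120 had a lowest value of 45.5%, a median of 90.8% and a highest value of 98.3%, and in control 120 these were 88.1%, 90.8% and 97.3%. In familiar 30 it was 95.9%, 92.4%, 89.6%, 91.4% and 86.9%, and in control 30 it was 95.3%, 98.6%, 76.1%, 97.5% and 90.8%. Familiar 120 replicate 3 was the low library, and the 4 groups otherwise overlapped. In chr6:28397314-28437460, mean cover was 80.9% ± 11.7 for familiar 120, 91.4% ± 3.46 for control 120, 91.6% ± 5.52 for familiar 30 and 95.2% ± 3.59 for control 30 (SD over 6, 6, 5 and 5 libraries).

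The regions with the best-ranked peaks were shorter than these domains. The fold enrichment deposited by the authors for each peak was used to rank peaks within a list and to describe single regions and libraries. No comparison of groups used it. By the median rank of its highest peak over the 22 lists, chr6:30454410-30456269, a region of 1860 bp, came first on the chromosome, with a median rank of 94.5 (the top 0.209% of a list). It held the highest peak of chromosome 6 in 7 lists. Its peaks had a deposited fold of 6.40 to 12.1 with a median of 8.45, and cover averaged 76.8% ± 9.24 in familiar 120, 85.03% ± 7.54 in control 120, 85.4% ± 7.58 in familiar 30 and 83.6% ± 8.38 in control 30 (SD, n = 6, 6, 5 and 5). Next came chr6:7241740-7248550 of 6811 bp, with a median rank of 165 and a fold of 6.002 to 9.44, and chr6:22552983-22556494 of 3512 bp, with a median rank of 191 and a fold of 5.98 to 9.80. All 3 were present in every library.

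Cover of the whole chromosome overlapped between the 4 groups. In familiar 120 the lowest, median and highest cover of the chromosome were 8.03%, 10.4% and 11.2%, and in control 120 they were 9.63%, 10.96% and 11.2%. In familiar 30 the 5 libraries had 11.04%, 11.1%, 11.4%, 11.4% and 9.68%, and in control 30 they had 10.8%, 10.9%, 10.98%, 11.4% and 11.3%. The values of the groups overlapped, and 2 familiar 120 libraries, replicates 3 and 4, were the lowest of all with 8.03% and 8.12%. In each of the 22 libraries the cover of chromosome 6 was lower than that of the rest of the genome, which was 9.41 to 13.3%.

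Exact two-sided permutation tests over libraries gave no adjusted p under 0.05 among 12 tests of chromosome-wide measures. Familiar 120 minus control 120 was -0.887 percentage points of cover (9.86% ± 1.48 and 10.7% ± 0.596, n = 6 each, exact p = 0.253, adjusted p = 0.434). The same difference at 30 was -0.134 points (10.9% ± 0.733 and 11.1% ± 0.272, n = 5 each, exact p = 0.873). Familiar 120 minus familiar 30 was -1.09 points (exact p = 0.177) and control 120 minus control 30 was -0.336 points (exact p = 0.301). Single libraries moved these values: the difference at 120 was -0.521 points without familiar 120 replicate 3, and that in controls was -0.114 points without control 120 replicate 3.

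The part of a library's covered length that lay on chromosome 6 gave the smallest p of the 12. It was 3.85%, 4.08% and 4.18% (lowest, median and highest) in familiar 120, and 4.15%, 4.19% and 4.35% in control 120. In familiar 30 it was 4.21%, 4.18%, 4.17%, 4.23% and 4.06%, and in control 30 it was 4.16%, 4.33%, 4.32%, 4.35% and 4.19%. At both time labels the highest values belonged to control libraries, and the groups overlapped. The difference between familiar and control was -0.148 points at 120 (4.06% ± 0.127 and 4.21% ± 0.0715, n = 6 each, exact p = 0.0216, adjusted p = 0.260) and -0.101 points at 30 (4.17% ± 0.0661 and 4.27% ± 0.0858, n = 5 each, exact p = 0.0952, adjusted p = 0.434). Neither held after adjustment.

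**Figure D3:**
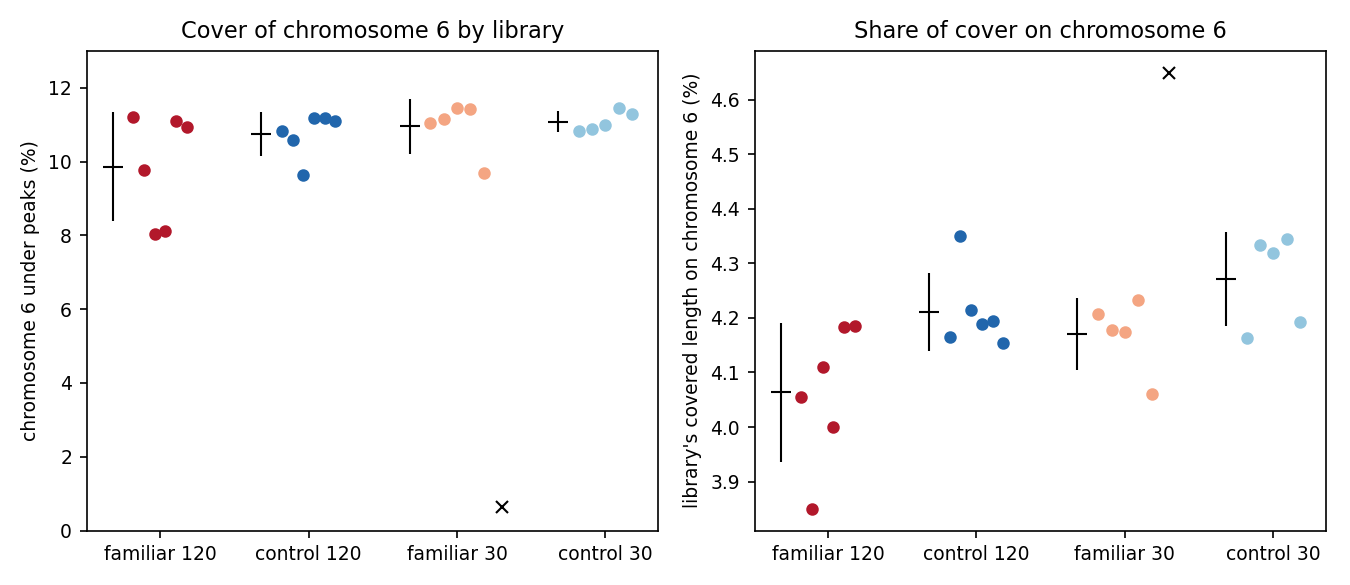
Percentage of chromosome 6 under peaks (left) and the part of a library's covered length that lies on chromosome 6 (right), by library. Circles are libraries, horizontal ticks with bars are group means ± 1 SD without the left-out library, and the cross is that library, familiar 30 replicate 2, at 0.634% and 4.65%.

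The number of chromosome 6 peaks was 1458 to 1975 in familiar 120, 1787 to 2044 in control 120, 1779 to 1997 in familiar 30 and 1835 to 2032 in control 30. Familiar 120 averaged 1806 ± 206 peaks, control 120 1942 ± 103, familiar 30 1913 ± 92.2 and control 30 1915 ± 94.8. None of the 4 differences passed (exact permutation tests, adjusted p = 0.434 to 0.929). With single libraries left out, familiar minus control at 120 ran from -170.4 to -67.0 peaks, the second without familiar 120 replicate 3, 120 minus 30 in familiar fish from -141.2 to -37.8, and 120 minus 30 in controls from 6.4 (without control 120 replicate 2) to 57.8 (without control 120 replicate 1).

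Familiar 120 replicate 3, familiar 30 replicate 4 and control 30 replicate 3 shared extra peaks. The Jaccard index, the bases of chromosome 6 under peaks of both libraries divided by those under peaks of either, had a median of 0.633 over the 231 pairs of libraries. Familiar 120 replicate 3 reached 0.561 with control 30 replicate 3 and 0.471 with familiar 30 replicate 4, but a median of 0.417 with the other 19. Control 30 replicate 3 reached 0.599 with familiar 30 replicate 4, its highest value but below the median of all pairs. The median of familiar 30 replicate 4 with the other kept libraries was 0.629, near that of all pairs. Of the 126 regions touched in exactly 3 libraries, 38 were touched in those 3, and 57 regions (2.48%) were touched in these 3 and at most 2 others, against 2.02% of regions on the other chromosomes. The 3 libraries were chosen from earlier results of these data, so these counts are a description. Values without these 3 libraries are given where they change a result.

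In 1 Mb windows, all 35 windows had a lower mean in familiar 120 than in control 120, with a median difference of -0.803 percentage points, and all 35 a lower mean in familiar 120 than in familiar 30, with a median of -0.735 points. These comparisons share the familiar 120 libraries. Familiar minus control at 30 was positive in 14 windows and negative in 21, and control 120 minus control 30 was positive in 8 and negative in 27. The windows are not independent, since the same libraries give all of them. Mean cover of familiar 120 was below that of control 120 in 65.2% of tested chromosome 6 regions and 62.0% of those in the genome. Against familiar 30 it was below in 67.6% and 65.9%. Familiar 120 replicates 3 and 4 covered 67.3 and 69.9 Mb of the whole genome, against 78.7 to 95.2 Mb in the other kept libraries. Over the 22 libraries, cover of chromosome 6 followed that of the rest of the genome (Pearson correlation 0.954). No window passed in limma, a linear model fitted across all windows with Benjamini-Hochberg adjustment, at an adjusted p under 0.05.

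Before adjustment, the windows with a p under 0.05 were counted against the same count over the 729 windows of the genome. They were 3 of 35 for familiar against control at 120, all lower (genome 1.37%), and 5 of 35 for 120 against 30 in familiar fish, all lower (genome 4.66%). There was 1 for the interaction, which is familiar minus control at 120 less familiar minus control at 30 (genome 0.686%), and none for familiar against control at 30 or for 120 against 30 in controls (genome 0.137% each).

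Window 20 had the largest difference between familiar 120 and familiar 30. Its cover averaged 16.2% ± 2.64 in familiar 120, 18.5% ± 2.14 in control 120, 19.8% ± 2.74 in familiar 30 and 19.2% ± 2.08 in control 30 (n = 6, 6, 5 and 5), and familiar 120 minus familiar 30 was -3.57 points (limma SE 1.39, unadjusted p = 0.0185, adjusted p = 0.593). Window 6 had the smallest p in that comparison, with 10.3% ± 1.72 in familiar 120 and 12.03% ± 1.07 in familiar 30, a difference of -1.71 points (limma unadjusted p = 0.0170, adjusted p = 0.593). Window 27 had the smallest p between familiar and control at 120, with 4.99% ± 1.06 in familiar 120 and 6.10% ± 0.615 in control 120 (-1.11 points, limma unadjusted p = 0.0169, adjusted p = 0.851). Window 21 followed there at -1.40 points (limma adjusted p = 0.851) and had the smallest p for the interaction (-2.30 points, limma adjusted p = 0.921).

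The other comparisons of windows gave larger p-values. Familiar minus control at 30 was -0.764 points in window 18 and 0.895 points in window 21, the windows with the smallest p there (limma adjusted p = 0.998 for both). Control 120 minus control 30 was -1.77 points in window 3 and -1.23 points in window 24 (limma adjusted p = 1 for both). For the interaction the second smallest p was that of window 6, at -1.51 points.

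Single regions were compared with limma on cover, adjusted over the 52924 regions of the genome with a mean cover of 5 to 95%. All but 1 of the chromosome 6 regions, 2294, met that limit, and the other exceeded 95%. No region on chromosome 6 or elsewhere passed at an adjusted p under 0.05 in any of 7 comparisons (0% of the genome). Fisher's exact test of presence called 0. Its smallest possible p was 0.00794 for familiar against control at 30 and 0.00216 in the other pairwise comparisons. Over 52924 regions a p of that size passes only when very many regions reach it, so this 0 adds nothing to that of limma. Counts at an unadjusted p under 0.05 are given next beside the share of all tested regions in the genome that reached it. Where an alternative is named, the count in the genome, of 52924 regions, follows in brackets.

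For familiar against control at 120, 147 chromosome 6 regions (6.41%) had an unadjusted p under 0.05 in limma, against 4.35% in the genome. Of these, 121 (5.27%, genome 3.65%) were lower and 26 (1.13%, genome 0.703%) were higher in familiar 120. The median difference was -5.80 points on chromosome 6 and -4.13 points in the genome. Without familiar 120 replicate 3 these medians were -3.41 and -1.16 points, and with each library's covered length as a covariate -2.51 and -0.76 points. The split rested in part on single libraries: it was 75 lower and 41 higher (genome 1217 and 727) without familiar 120 replicate 3, 136 and 17 (genome 2447 and 304) without familiar 120 replicate 1, and 182 and 28 (genome 2590 and 423) without familiar 120 replicate 6. With the covariate it was 75 lower and 46 higher (genome 1195 and 831). With limma's array weights it was 115 lower and 51 higher (genome 1684 and 839), and without the 3 libraries with shared extra peaks 107 and 47 (genome 1446 and 853). Fisher's test gave 9 regions with p under 0.05, or 0.392% against 0.185% in the genome.

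For 120 against 30 in familiar fish, 109 regions (4.75%) had an unadjusted p under 0.05, against 4.19% in the genome. Of these, 91 (3.97%, genome 3.49%) were lower and 18 (0.785%, genome 0.695%) were higher in familiar 120. The median difference was -5.61 points on chromosome 6 and -4.81 points in the genome. With the left-out library restored both medians turned positive, at 1.74 and 3.20 points. They were -1.45 and -0.19 points with covered length as a covariate, -3.59 and -2.94 points without familiar 120 replicate 4, and -4.15 and -2.19 points without familiar 120 replicate 3. With the covariate the split was 39 lower and 51 higher (genome 843 and 1151), and with the left-out library restored 17 and 33 (genome 474 and 717). It was 78 and 30 (genome 1352 and 762) without familiar 120 replicate 3, 91 and 28 (genome 1809 and 408) without familiar 30 replicate 3, and 141 and 18 (genome 2603 and 321) without familiar 30 replicate 6. With array weights it was 85 and 29 (genome 1442 and 605), and without the 3 libraries with shared extra peaks 78 and 31 (genome 1494 and 774). Fisher's test gave 13 regions with p under 0.05, or 0.567% against 0.306% in the genome.

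At 30, 71 regions (3.1%) had an unadjusted p under 0.05 between familiar and control, against 3% in the genome, 36 lower (1.57%, genome 1.27%) and 35 higher (1.53%, genome 1.72%) in familiar 30. The median difference was 0 points on chromosome 6 and 0.444 points in the genome. The medians were 1.63 and 2.44 points without familiar 30 replicate 6, and -8.98 and -7.68 points with the left-out library restored. The split was 34 lower and 56 higher (genome 602 and 1457) without familiar 30 replicate 6, 56 and 28 (genome 907 and 756) without control 30 replicate 2, and 78 and 16 (genome 1440 and 304) with the left-out library restored. In controls, 70 regions (3.05%) had an unadjusted p under 0.05 between 120 and 30, against 3.2% in the genome, 40 lower (1.74%, genome 1.45%) and 30 higher (1.31%, genome 1.75%) in control 120. With covered length as a covariate the split in controls was 40 lower and 45 higher (genome 754 and 1319). Fisher's test gave 9 regions with p under 0.05 between familiar and control at 30, or 0.392% against 0.463% in the genome, and 7 between 120 and 30 in controls, or 0.305% against 0.299%.

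The interaction had 104 regions (4.53%) with an unadjusted p under 0.05, against 4.15% in the genome, 75 negative (3.27%, genome 3.22%) and 29 positive (1.26%, genome 0.926%). Over both time labels, familiar against control had 115 (5.01%), against 3.42%, 90 lower (3.92%, genome 2.45%) and 25 higher (1.09%, genome 0.967%). Over both treatments, 120 against 30 had 86 (3.75%), against 3.85%, 65 lower (2.83%, genome 2.74%) and 21 higher (0.915%, genome 1.11%). Without familiar 120 replicate 3, the negative and positive or lower and higher regions were 64 and 44 (genome 1322 and 818), 86 and 41 (genome 1068 and 1028), and 65 and 37 (genome 1420 and 983) in these 3 comparisons. They were 68 and 44 (genome 1366 and 795) for the interaction without familiar 120 replicate 4, and 101 and 16 (genome 1556 and 540) for familiar against control over both labels without familiar 120 replicate 1. With covered length as a covariate they were 62 and 46 (genome 1217 and 896), 74 and 35 (genome 1083 and 918), and 33 and 60 (genome 813 and 1470). With the left-out library restored they were 33 and 48 (genome 812 and 924), 131 and 17 (genome 2052 and 284), and 27 and 34 (genome 673 and 898).

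Short and long regions shared a low familiar 120 mean, while the order of the other 3 groups differed between them. In regions of 10 kb or longer, mean cover was 72.6% ± 10.7 in familiar 120, 78.9% ± 3.54 in control 120, 80.6% ± 3.47 in familiar 30 and 79.9% ± 4.99 in control 30 (SD over libraries, n = 6, 6, 5 and 5). In those under 1 kb it was 25.7% ± 7.31 in familiar 120, 29.1% ± 3.63 in control 120, 28.9% ± 4.28 in familiar 30 and 30.2% ± 4.95 in control 30. The familiar 120 mean was the lowest in each of the 4 length classes, and its libraries were the most spread. Regions present in every library of a group numbered 263 in familiar 120, 504 in control 120, 511 in familiar 30 and 497 in control 30. Such a count is capped by a group's lowest libraries and falls with the number of libraries. Familiar 120 replicates 3 and 4 had 679 and 735 regions present, against at least 1003 in every other kept library.

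The region with the smallest p on chromosome 6 lay near its left end, in window 2, at chr6:1088987-1093105, and measured 4119 bp. In control 120 its cover was 10%, 0%, 0%, 37.8%, 0% and 8.13%, and in control 30 it was 85.3%, 59.4%, 90.8%, 85.6% and 86.0%. In familiar 120 it was 28.4%, 52.6%, 61.5%, 61.0%, 57.8% and 26.4%, and in familiar 30 it was 55.7%, 36.3%, 90.8%, 69.4% and 43.97%. Every control 120 library was below every control 30 library, and the familiar libraries, at 26.4 to 90.8%, overlapped each other and both control groups.

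Control 120 minus control 30 was -72.1 points in that region (9.32% ± 14.7 and 81.4% ± 12.5, n = 6 and 5, limma SE 10.8, adjusted p = 0.0528), just short of the threshold. Over its alternatives the adjusted p was 0.0198 to 0.747. It was under 0.05 without control 120 replicate 4 (0.0198), without familiar 30 replicate 4 (0.0223), without control 30 replicate 2 (0.0434), without familiar 30 replicate 3 (0.0460) and with array weights (0.0390). In the limma fit with all 22 libraries the difference was -11.3 points between familiar 120 and familiar 30 (adjusted p = 0.999). Familiar minus control was 38.6 points at 120 (unadjusted p = 0.00108, adjusted p = 0.968) and -22.2 points at 30 (adjusted p = 1). The interaction was 60.8 points (adjusted p = 0.99986), and 120 minus 30 over both treatments was -41.7 points (adjusted p = 0.445). These comparisons share groups with each other.

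The peaks in this region had a low fold, and in the neighbours on either side the means of control 120 and control 30 lay close together. Where it held a peak, the highest deposited fold was 2.20 to 2.97. The neighbour to the left, chr6:1084521-1087975, was present in all 22 libraries and averaged 75.5% in familiar 120, 71.8% in control 120, 68.1% in familiar 30 and 73.5% in control 30. To the right, chr6:1094118-1096784 averaged 37.4% in familiar 120, 35.7% in control 120, 51.9% in familiar 30 and 36.3% in control 30, and chr6:1103808-1105568, present in all 22, averaged 81.4%, 79.6%, 90.7% and 85.8% in the same groups. Control 120 minus control 30 was -1.68, -0.667 and -6.18 points in these 3 neighbours (limma adjusted p = 1 for each), and -39.7 to 26.7 points over the 12 neighbours examined.

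**Figure D4:**
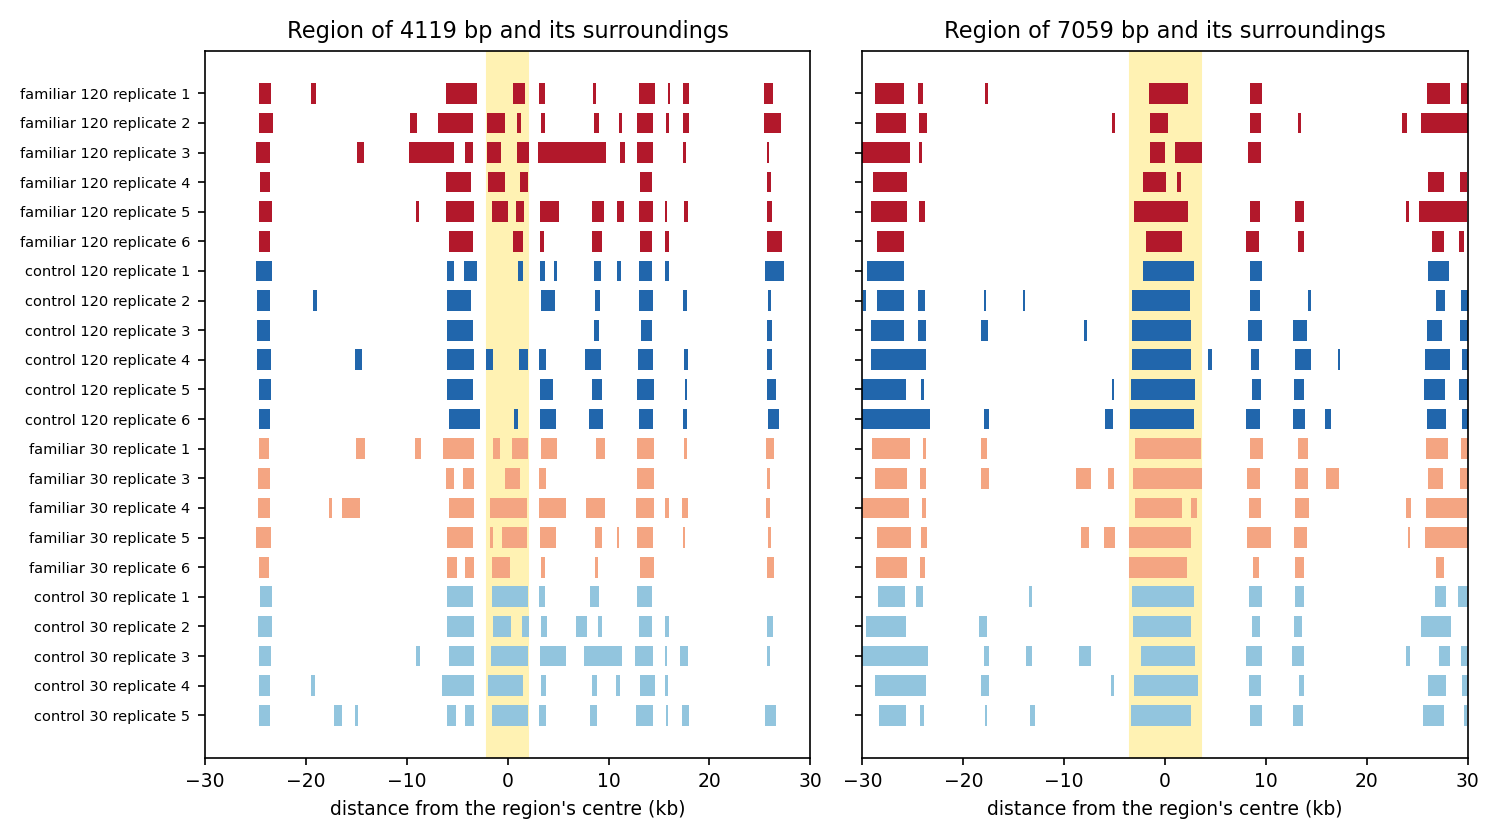
Peaks of the 22 libraries within 30 kb of the centre of the 4119 bp region (left) and of the 7059 bp region (right), with each region shaded. Each row is a library and each bar a stretch under its peaks, by distance from the centre in kb. In the left panel 3 control 120 libraries have no peak in the shaded region, and in the right panel all familiar 120 libraries but replicate 5 cover less of the shaded region than any library of the other 3 groups.

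Familiar 120 had lower cover than the other 3 groups in chr6:19088251-19095309, a region 7059 bp long in window 20. In familiar 120 its cover was 54.2%, 25.2%, 56.9%, 38.7%, 75.8% and 51.3%, against a lowest value of 72.3%, a median of 82.4% and a highest value of 91.1% in control 120. In familiar 30 it was 92.04%, 95.6%, 73.8%, 86.6% and 81.4%, and in control 30 it was 87.1%, 82.2%, 75.5%, 90.4% and 83.9%. All familiar 120 libraries but replicate 5 were below every library of the other 3 groups. Familiar minus control at 120 was -33.0 points (50.3% ± 17.2 and 83.3% ± 6.76, n = 6 each, limma unadjusted p = 0.000432, adjusted p = 0.952), and familiar 120 minus familiar 30 was -35.5 points (adjusted p = 0.697). Neither passed, and over their alternatives the adjusted p was 0.559 to 1 and 0.297 to 1.

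In that region every library had a peak, and the highest deposited fold was 2.86 to 5.91 over all libraries, a scale of each list that does not compare libraries. To its right lay chr6:19104463-19106050 of 1588 bp, named for familiar 120 against familiar 30. Its cover was 0%, 18.6%, 0%, 0%, 56.9% and 35.01% in familiar 120, and 60.0%, 83.2%, 88.6%, 83.8% and 59.6% in familiar 30. The familiar groups did not overlap there. In control 120 it was 0%, 7.43%, 89.4%, 89.2%, 63.6% and 75.4%, and in control 30 it was 58.3%, 52.5%, 68.8%, 29.7% and 64.8%. Familiar 120 minus familiar 30 was -56.6 points (limma unadjusted p = 0.00153, adjusted p = 0.886). Between them, chr6:19099833-19101420 averaged 62.6% in familiar 120, 69.97% in control 120, 73.8% in familiar 30 and 75.6% in control 30.

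The smallest p between familiar and control at 120 belonged to chr6:14296681-14298095, of 1415 bp. In familiar 120 its cover was 47.1%, 36.5%, 0%, 31.7%, 27.9% and 70.6%, and in control 120 it was 68.6%, 70.1%, 84.6%, 87.1%, 83.6% and 90.1%. In familiar 30 it was 41.9%, 82.3%, 53.9%, 56.5% and 37.3%, and in control 30 it was 82.1%, 78.7%, 92.4%, 63.2% and 71.9%. Familiar 120 replicate 6 alone of its group reached into the control range. The difference at 120 was -45.0 points (limma unadjusted p = 0.000223, adjusted p = 0.915), and familiar minus control over both time labels was -34.2 points (adjusted p = 0.99995). Over the alternatives the difference ran from -52.0 to -28.9 points at 120, and from -38.7 to -8.00 points over both time labels. Neither passed the threshold.

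Next in that comparison, chr6:6000848-6001561 of 714 bp had a cover of 100%, 65.8%, 0%, 92.6%, 55.2% and 32.1% in familiar 120 and 0% in all 6 control 120 libraries. In familiar 30 it was 0%, 0%, 74.4%, 0% and 0%, and in control 30 it was 0%, 18.2%, 0%, 0% and 31.4%. The difference at 120 was 57.6 points (limma adjusted p = 0.968). It was 69.1 points without the 3 libraries with shared extra peaks, of which familiar 120 replicate 3 is the one at 0% in its group, and then passed (adjusted p = 0.0447, with a range of 0.0447 to 1 over its alternatives). Its peaks were weak, with a highest fold of 2.15 to 2.53. Outside familiar 120, 3 libraries had peaks there, the lowest with a cover of 18.2%. Most of the region thus met the 3-library rule only with familiar 120 libraries, and its difference is a description.

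The other regions named for that comparison were lower in familiar 120 and did not pass. In chr6:27420384-27421535, familiar 120 had peaks in replicate 1 alone, with a cover of 63.5%, and control 120 had 100%, 78.4%, 41.5%, 100%, 22.2% and 64.8% (difference -57.2 points, limma adjusted p = 0.968). Familiar 30 averaged 40.5% ± 28.5 there and control 30 52.2% ± 19.1. In chr6:19176219-19177254, no familiar 120 library had a peak, and control 120 had 0%, 100%, 81.4%, 27.5%, 75.1% and 77.99% (difference -60.3 points, limma adjusted p = 0.968). Familiar 30 averaged 25.5% ± 43.3 and control 30 had no peak there. Only 2 libraries outside control 120 touched this region, so it met the 3-library rule through control 120 and its difference is a description.

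At 30, the smallest p belonged to chr6:32979780-32980032, a region of 253 bp that only familiar 30 libraries touched. Its cover was 85.8%, 100%, 100%, 68.0% and 0% in familiar 30 and 0% in all 17 libraries of the other 3 groups. Such a region entered the list through the libraries of 1 group, so its difference is in part a consequence of the rule and is given as a description. The difference was 70.8 points between familiar and control at 30 (70.8% ± 41.7 and 0%, n = 5 each, limma SE 12.8, adjusted p = 0.395) and -70.8 points between familiar 120 and familiar 30 (adjusted p = 0.221). Without familiar 30 replicate 6, the library at 0%, the adjusted p was 8.2e-06 and 4.1e-06, and over all alternatives it ran up to 1. Its peaks ranked 33626 to 44348 in their lists, with a fold of 2.04 to 2.27.

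Both of the next regions were touched in 3 libraries of a single group and entered the list through them. In chr6:21602515-21602785, of 271 bp, familiar 30 had 100%, 100%, 100%, 0% and 0%, and the other groups had no peak. In chr6:30883630-30883890, of 261 bp, control 30 had 0%, 0%, 100%, 100% and 100%, and the other groups had no peak. Both gave differences of 60 points in size with limma adjusted p = 0.929 between familiar and control at 30. The first had an adjusted p of 0.697 between familiar 120 and familiar 30, and 0.0435 without familiar 30 replicate 6, where the range over its alternatives was 0.0435 to 1.

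A further region named at 30 had peaks of higher fold. In chr6:2006795-2007447, of 653 bp, familiar 30 had 0%, 0%, 0%, 0% and 31.4%, and control 30 had 58.3%, 99.5%, 97.9%, 100% and 69.2%, so the groups did not overlap. Familiar 120 had 66.2%, 37.4%, 0%, 65.1%, 95.3% and 0%, and control 120 had 0%, 0%, 97.9%, 0%, 0% and 0%. Its peaks reached a fold of 2.49 to 4.85. Familiar minus control was -78.7 points at 30 (limma unadjusted p = 0.000429, adjusted p = 0.929) and 27.7 points at 120 (adjusted p = 0.968). The interaction, 106 points, had the smallest p of chromosome 6 for that term (unadjusted p = 0.000437, adjusted p = 0.99986), and control 120 minus control 30 was -68.7 points (adjusted p = 1). None passed.

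Also named at 30, chr6:23503494-23505009 of 1516 bp had a cover of 0%, 22.6%, 0%, 0% and 0% in familiar 30 and 95.3%, 40.2%, 53.6%, 0% and 100% in control 30 (difference -53.3 points, limma adjusted p = 1). At 120 familiar libraries had peaks in replicate 6 alone, with 64.8%, and control libraries had 65.0%, 49.0%, 29.7%, 29.4%, 47.8% and 43.9%. Over both time labels the difference was -43.3 points (adjusted p = 0.99995). Only 1 familiar library at each time label touched this region, so it met the rule for regions only with control libraries. Its differences between familiar and control are thus in part a consequence of that rule and are given as a description.

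**Figure D5:**
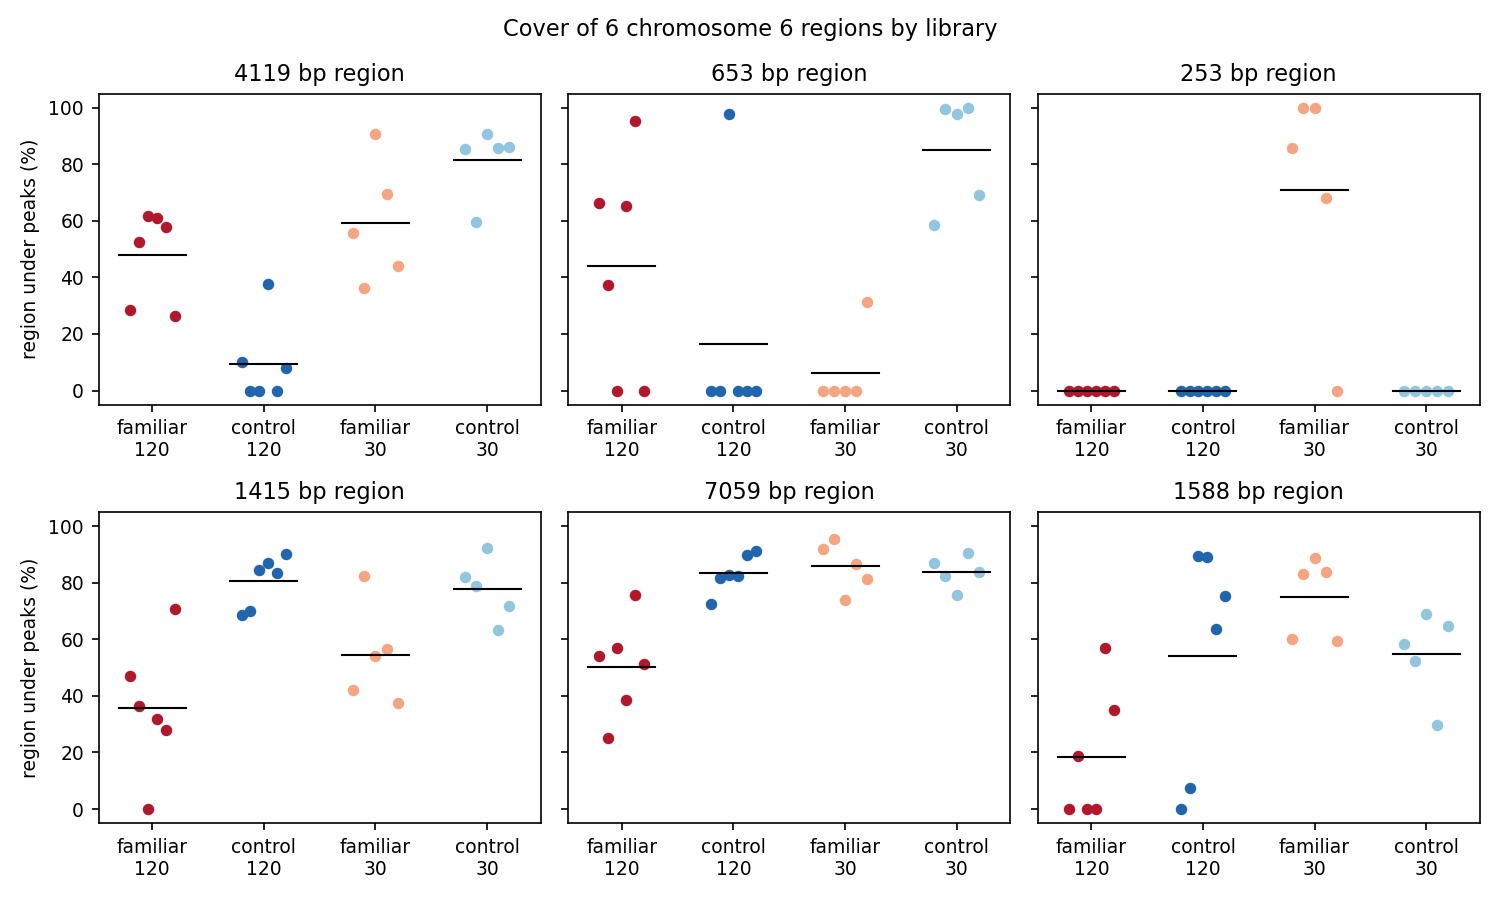
Percentage of 6 chromosome 6 regions under peaks in each of the 22 libraries, by group, with the group mean as a line. The regions are named by length, and the 4119 bp region shows low control 120 values, from 0 to 37.8%, below every control 30 library.

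Among regions named for 120 against 30 in controls, chr6:4614916-4615378 was listed at 0% in all 10 libraries at 30. Control 120 had 62.6%, 64.8%, 58.7%, 74.5%, 0% and 100%, and familiar 120 had 100% in replicate 6 and 0% in the others. Control 120 minus control 30 was 60.1 points (limma adjusted p = 1), and as only 1 library outside control 120 touched the region, it met the 3-library rule through control 120 and the difference is a description. In chr6:31022261-31022886, control 120 had peaks in replicate 6 alone, with 76.8%, and control 30 had 69.5%, 87.7%, 49.4%, 100% and 88.3% (-66.2 points, adjusted p = 1). Familiar 120 averaged 16.1% ± 25.1 there and familiar 30 45.1% ± 45.3, and 120 minus 30 over both treatments was -47.6 points (adjusted p = 0.99985). The last of those named for familiar fish, chr6:14794408-14795108, had 0%, 100%, 0%, 61.5%, 70.04% and 100% in familiar 120 and 0% in all 5 familiar 30 libraries (55.3 points, limma adjusted p = 0.903). Only 2 libraries outside familiar 120 touched it, so here too the rule was met through the group where cover was high.

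Few regions separated the groups completely. At 120, familiar libraries were all above control libraries in 1 chromosome 6 region (0.00945% of regions in the genome) and all below in 3 (0.104%). At 30, they were all above in 1 (0.149%) and all below in 4 (0.111%). In controls, 120 was wholly above 30 in 0 (0.102%) and wholly below in 2 (0.1%). In familiar fish, 120 was wholly above 30 in 2 (0.0113%) and wholly below in 4 (0.157%). With counts this small, the chromosome 6 shares, 0 to 0.174%, cannot be set apart from the genome.

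These regions are described after their values were seen. In chr6:14875062-14878417, of 3356 bp, familiar 120 had 78.2 to 92.3%, control 120 56.1 to 74.8% and familiar 30 53.2 to 77.1%, so familiar 120 stood above both (limma differences of 23.1 and 16.2 points, adjusted p = 0.968 and 0.999). In chr6:508805-513583, of 4779 bp, familiar 120 had 70.9 to 79.4% and control 120 82.4 to 97.8% (-14.5 points, adjusted p = 0.968). In chr6:33710187-33711294, of 1108 bp, familiar 120 had 0 to 39.9% and control 120 46.2 to 90.2% (-44.2 points, adjusted p = 0.968). The third lower one was chr6:4114688-4117134, with 39.3 to 82.1% in familiar 120 and 82.4 to 100% in control 120.

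In familiar fish, chr6:1031919-1032484 had 69.1 to 98.1% at 120 and 0 to 57.1% at 30 (44.6 points, limma adjusted p = 0.999). Besides chr6:19104463-19106050, the regions wholly lower at 120 were chr6:29742382-29746066 (30.8 to 76.0% at 120 and 81.1 to 99.2% at 30), chr6:15948206-15949686 (0 to 52.9% at 120 and 53.3 to 99.5% at 30) and chr6:3176267-3177420 (62.2 to 71.1% at 120 and 78.4 to 95.3% at 30). In controls the second region wholly lower at 120 was chr6:9027676-9038679, with 55.01 to 61.4% in control 120 and 61.9 to 80.1% in control 30. At 30, chr6:14532837-14537505 was wholly higher in familiar fish, with 43.4 to 89.9% in familiar 30 and 32.3 to 42.96% in control 30. The others wholly lower in familiar 30, beside chr6:2006795-2007447, were chr6:33535711-33541827 (47.8 to 61.7% in familiar 30 and 69.4 to 91.4% in control 30), chr6:14575711-14577777 (68.2 to 86.0% in familiar 30 and 89.0 to 100% in control 30) and chr6:7209775-7215301 (77.2 to 89.6% in familiar 30 and 90.0 to 99.3% in control 30).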

How the data were processed

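H3K27ac CUT&RUN libraries of forebrain were compared by their deposited peak lists, which the authors made for each library separately. MACS2, Bowtie2, Picard, SAMtools, FastQC and Trimmomatic 0.39 are listed, per the submitters' processing notes. The sources used here give no genome build or peak settings and do not say how input DNA was used. The deposited score equals 10 times the -log10 q in 99.9888% of rows. The deposited fold, a ratio to the background that the authors' peak caller estimated, served to rank peaks inside a list and to describe regions and libraries. It entered no comparison of groups. Both the -log10 p and the -log10 q were deposited by the authors, the second never below 1.00. Peak number and width depend on read depth, which is unknown.

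Libraries were grouped by title. A library was left out where its peaks numbered less than 0.5 times the median of 45859. Regions were built and their cover computed with Python 3.11.15, numpy 2.4.6 and pandas 2.3.3. Cover was fitted in R 4.3.3 with limma 3.58.1 on all 4 groups in a single model, over all regions of the genome with a mean cover of 5 to 95% and over all 1 Mb windows, with Benjamini-Hochberg adjustment and a threshold of 0.05. The fit was tested on real values shuffled over libraries region by region, with large changes planted. Shuffling removes differences between whole libraries, so that test says nothing of smaller changes in these data. Cover is bounded and often 0 or 100%, which this model does not describe. Chromosome-wide values were compared with two-sided exact permutation tests, computed in Python and adjusted over 12. Fisher's exact test used scipy 1.17.1. Figures used matplotlib 3.10.9.

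Named regions were, for each of 4 comparisons, the 5 of smallest p, and the 3 with the smallest p in the interaction and in each comparison over both labels, the 5 longest, the 5 longest present in every library and the 3 with the best median rank. Windows named are the 3 highest, the 3 lowest and the 2 with the smallest p per comparison. The members, lists and tests were chosen with earlier results of these data known, and so were the 3 libraries with shared extra peaks. Alternatives were all 23 libraries, only peaks whose -log10 q reached 5, a covariate for covered length, the range of the numbers in the titles (17 to 29, 43 to 59 and 69 to 80) as a block, array weights, each library left out, and other rules for regions, windows and tests.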

Additional observations from a re-analysis of the deposited data

Results flagged for a closer look

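Library values that stood apart from the rest of their group by Dixon's criterion numbered 24 among 99 groups of values. The criterion's rate of about 1 in 20 holds for independent, normally spread values. Cover is bounded and often 0, and where a single library of a group has peaks it is always flagged. The number of flags therefore cannot be set against that rate. Familiar 30 replicate 2, which was left out of every comparison, stood apart in 6 measures: 316 peaks on chromosome 6, a cover of the chromosome of 0.634%, a share of covered length of 4.65%, a median Jaccard index with other libraries of 0.0542, 11 regions present, and a highest fold of 4.91. Control 120 replicate 2 had a high share of covered length, 4.35%. The median Jaccard index was low in familiar 120 replicate 3, at 0.420, and in control 30 replicate 3, at 0.540.

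Familiar 120 replicate 3 was also low in long domains, with a cover of 45.5% in chr6:11353346-11438729, 31.7% in chr6:7897942-7950105, 57.7% in chr6:13638951-13690715 and 56.9% in chr6:16761263-16808229. In that last domain control 30 replicate 3 was low with 81.3% and control 120 replicate 3 with 86.6%. Control 120 replicate 3 was low with 80.2% in chr6:7241740-7248550.

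In the regions named for a small p, control 120 replicate 4 was high with 37.8% and control 30 replicate 2 low with 59.4% in chr6:1088987-1093105. In chr6:2006795-2007447, control 120 replicate 3 was high with 97.9% and familiar 30 replicate 6 with 31.4%. Familiar 30 replicate 3 was high with 22.6% in chr6:23503494-23505009, familiar 120 replicate 1 with 63.5% in chr6:27420384-27421535, and control 120 replicate 6 with 76.8% in chr6:31022261-31022886. The highest deposited fold on chromosome 6 stood apart in control 120 replicate 1, at 63.9.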

How the results depend on the processing

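Over the alternatives, 681 recomputed values of the comparisons stayed the same, 12 gained a call and 10 reversed. For counts of regions or windows, the same means a count that stayed at 0. For chromosome-wide differences it means the same direction and the same side of the threshold. The count of chromosome 6 regions passing, 0 in each comparison, became 1 for familiar against control at 120 without the 3 libraries with shared extra peaks, and 1 for 120 against 30 in controls with array weights or with gaps of up to 1000 bp joined. With single libraries left out it was 0 to 1 for familiar against control at 30, for 120 against 30 in controls, for the interaction and for both comparisons over labels or treatments, and 0 to 2 for 120 against 30 in familiar fish. The calls at 30, in familiar fish, over labels or treatments and for the interaction appeared without familiar 30 replicate 6. They were chr6:32979780-32980032 and, in familiar fish, also chr6:21602515-21602785. These entered the list through familiar 30 libraries and have no peak in the library removed, so nothing is read from them. The call at 120 was chr6:6000848-6001561, most of which met the 3-library rule only with familiar 120 libraries. The libraries removed there include familiar 120 replicate 3, at 0% in that region, so nothing is read from that call either. In controls, the calls with single libraries left out were chr6:1088987-1093105, with the limits given above. No window passed under any alternative. Familiar 120 minus familiar 30 turned to 0.630 points of chromosome cover and 158.8 peaks with all 23 libraries, and to 4 peaks when only peaks whose -log10 q reached 5 were kept. Familiar minus control at 30 in peaks, -2.4, turned to 33.7 with the title number range as a block and 6.5 without the 3 libraries, and ran from -23.4 to 31.1 with single libraries left out, while cover ran from -0.259 to 0.184 points. Chromosome cover ran from -1.16 to -0.521 points for familiar minus control at 120, from -1.41 to -0.723 for 120 minus 30 in familiar fish and from -0.425 to -0.114 in controls. None of these chromosome-wide differences had an adjusted p under 0.05 in the exact permutation tests, and the cause was not tested. Regions with few and weak peaks limit every comparison, as read depth is unknown. No paired analysis was possible because titles carry a different number for each library and replicate numbers only name them.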

Other observations

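The highest peak of control 120 replicate 1 in its whole list lay on chromosome 6, at chr6:1689363-1689987, with a deposited fold of 63.9 and a -log10 q of 607. No other library had a peak there, so it belongs to no region, and the second-highest chromosome 6 fold in that list was 13.9. The highest chromosome 6 peak of control 30 replicate 5, in chr6:30454410-30456269, was also the highest of its whole list, with a fold of 10.9. On chromosome 6, 1427 kb lay under the peaks of exactly 1 library, 779 kb under those of 2 and 498 kb under those of 3, and 1287 kb lay under the peaks of all 22.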
